A study of Mus musculus with 16 samples.

Results

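The macrophage and myeloid genes described here are 42 genes that were listed by symbol and looked up among the 24411 rows of the raw count table. All 42 were in the table, and 41 passed edgeR's filter on low counts, which 13660 genes of the table passed. Only Ccl3 did not pass it, with 0 to 9 counts per mouse. RNA was sequenced from whole pancreas of 16 male C57BL6/J mice at 12 weeks of age, each mouse being 1 library. The WT group held 5 mice given control drinking water. The Lep(ob/ob) group held 7 mice that lack functional leptin, also on control water. The CCKRi group held 4 Lep(ob/ob) mice whose water contained a cholecystokinin receptor antagonist for the last 6 weeks. Mice 69 and 72 received proglumide (0.1 mg/ml), and mice 74 and 76 lorglumide (0.05 mg/ml). The WT mice weighed 27.7 ± 3.22 g (SD, n = 5). Weights of 51.0 ± 1.98 g (SD, n = 7) were recorded for the Lep(ob/ob) group. The CCKRi mice weighed 54.8 ± 2.22 g (SD, n = 4). On the origin of the mice the sources differ, since the labels have WT mice from in-house breeding and the study's methods have both genotypes as purchased.

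Macrophages are phagocytes that live in every tissue and are replenished in part from blood monocytes. They depend on the growth factor receptor CSF1R and the transcription factor PU.1, clear dying cells and lipid, and in obese fat tissue gather around dying adipocytes. Whole pancreas also holds acinar cells, islets, ducts, vessels, and pieces of fat and lymph node that can stay attached. In such bulk samples, fewer macrophages and less RNA per macrophage cannot be told apart. Adipoq encodes adiponectin, a hormone that fat cells secrete, and its level was taken as a proxy for fat cell RNA in each library.

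The libraries held 9.87 to 34.45 M counts, and the 50 most counted genes took 49.3% to 85.0% of them. By their labels the libraries fell into batch A, with 3 mice of WT and 4 of Lep(ob/ob), and batch B, with 2 of WT, 3 of Lep(ob/ob) and all 4 of CCKRi. Batch B was thus the only one with CCKRi mice, so comparisons with them over both batches used batch as a covariate, and those within batch B are given beside them. The 7 acinar marker genes summed to 61731 to 514949 counts per M (CPM) and so marked every library as pancreas. Levels below are CPM after TMM normalization, a scaling that corrects for a few very abundant genes, and differences are on the log2 scale. The Adipoq level was 5.99, 22.9, 21.5, 10.1 and 11.3 CPM in the WT mice 5489, 5492, 5494, 58 and 59. It ran from 7.54 through a median of 33.0 to 210.5 CPM in Lep(ob/ob) mice and was 133, 47.3, 33.5 and 28.2 CPM in the CCKRi mice 69, 72, 74 and 76. The Lep(ob/ob) range overlapped both other groups, whereas every CCKRi mouse lay above every WT mouse, and in batch B both WT mice lay below all obese mice. Lep(ob/ob) mice 463, 461 and 417 and CCKRi mouse 69 had the highest levels. The cut after these 4 mice has no gap behind it. Mouse 417 had 55.9 CPM and mouse 461 had 75.8 CPM, and CCKRi mouse 72 came next at 47.3 CPM. Results that rest on the 4 mice are given with and without them.

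Spi1, a member, encodes PU.1, a factor that binds purine-rich DNA. The promoters of the members were searched for letters of its known motif because the members moved together across mice. RefSeq promoter windows (GRCm38.p6, 250 bases before to 50 after the start) were found for 33 of the 42 members, in 38 windows. The letters AGGAAGT, read on both strands, occurred in 28.9% of the member windows and in 9.35% of all 32851 windows. The shorter GGAAGT, which lies within AGGAAGT, occurred in 19 of the 38 member windows and in 23.8% of all, and the longer GAGGAAGT in 5.26% of member windows and 3.2% of all. A match is a description of letters in a window and not a binding site. The sequences here show 4 matches with up to 60 bases on each side, 5′ to 3′ on the strand of the gene. Capitals mark the match, which is the reverse complement of the motif in each. They were chosen because Lyz1 and Lyz2 are neighbouring copies with the motif at the same place, 100 to 94 bases before the start, and C1qb and Ccl6 carry it 53 to 47 and 48 to 42 bases before it.
Lyz1 (chr10:117292902-117293028, minus strand): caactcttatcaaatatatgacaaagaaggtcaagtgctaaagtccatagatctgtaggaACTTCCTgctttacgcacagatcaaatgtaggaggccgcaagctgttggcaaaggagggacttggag
Lyz2 (chr10:117282306-117282432, minus strand): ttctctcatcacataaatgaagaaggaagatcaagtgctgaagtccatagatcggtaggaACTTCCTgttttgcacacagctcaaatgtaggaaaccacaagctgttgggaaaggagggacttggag
C1qb (chr4:136886201-136886313, minus strand): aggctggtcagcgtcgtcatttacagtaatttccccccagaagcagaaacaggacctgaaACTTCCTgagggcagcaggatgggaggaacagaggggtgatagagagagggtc
Ccl6 (chr11:83593088-83593195, minus strand): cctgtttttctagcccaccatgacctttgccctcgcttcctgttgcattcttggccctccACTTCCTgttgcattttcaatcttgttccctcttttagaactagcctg

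Levels per kb of exon spanned a wide range among the members. In WT, Lyz2 (lysozyme 2, an enzyme that cuts bacterial cell walls and is abundant in macrophages, neutrophils and other myeloid cells) was highest at 73.9 ± 20.1 CPM per kb (SD, n = 5). C1qa followed at 17.5 ± 3.48 and C1qb at 13.3 ± 1.37 CPM per kb (SD, n = 5), whose spreads overlap, then Ctss (cathepsin S, a lysosomal protease) at 11.9 ± 3.93 CPM per kb (SD, n = 5). The lowest tested member per kb was Trem2, a lipid-sensing receptor, at 0.15 ± 0.08 CPM per kb (SD, n = 5). Lyz2 and C1qa were ranked 1 and 2 among the members in all 3 groups. Gpnmb, a glycoprotein of lipid-loaded macrophages, was ranked 40 in WT, 22 in Lep(ob/ob) and 26 in CCKRi mice, and Lyz1 was ranked 10, 19 and 20. The summed level of the 42 members was 330.4 to 480.4 CPM in WT, 161.9 to 1831 CPM in Lep(ob/ob) and 233.5 to 693 CPM in CCKRi mice. The obese mice thus lay on both sides of the lean ones, and the WT mice were closest together.

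**Figure D1:**
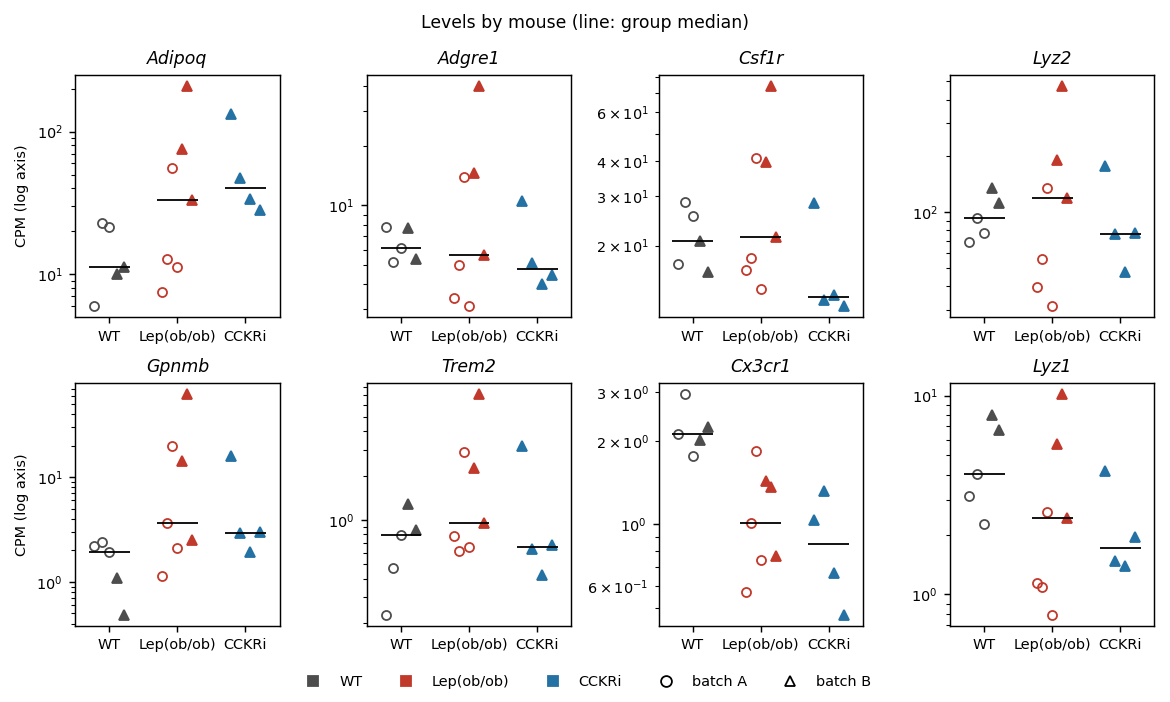
Level of Adipoq and 7 members in each mouse (CPM on a log axis), by group, with open circles for batch A, filled triangles for batch B and a line at the group median. Lep(ob/ob) mouse 463 is the highest point in 7 of the 8 panels, while Cx3cr1 is lowest in the obese groups.

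The members rose and fell together from mouse to mouse. Lep(ob/ob) mouse 463 had the highest level of all 16 mice for 39 of the 41 members, all but Marco and Cx3cr1, at 1.68 times (Tlr2) to 20.2 times (Gpnmb) the median of the other Lep(ob/ob) mice. The lowest mouse was Lep(ob/ob) mouse 447 for 20 members, Lep(ob/ob) mouse 441 for 7, CCKRi mouse 74 for 6, CCKRi mouse 76 for 3 and WT mouse 5489 for 2, with WT mouse 59 and Lep(ob/ob) mice 472 and 464 lowest for 1 each. Mice 463, 461 and 417 were the 3 highest of the 7 Lep(ob/ob) mice for 34 of 41 members, as they were for Adipoq, against 13.1% of the other genes tested. The exceptions were Aif1, Fcgr1, Fcgr3, Ccl2, Clec4n, Clec7a and Ms4a7. In the CCKRi group, mouse 69 was highest for 37 of 41 members. The other marker lists of these mice are given with the Adipoq relation.

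**Figure D2:**
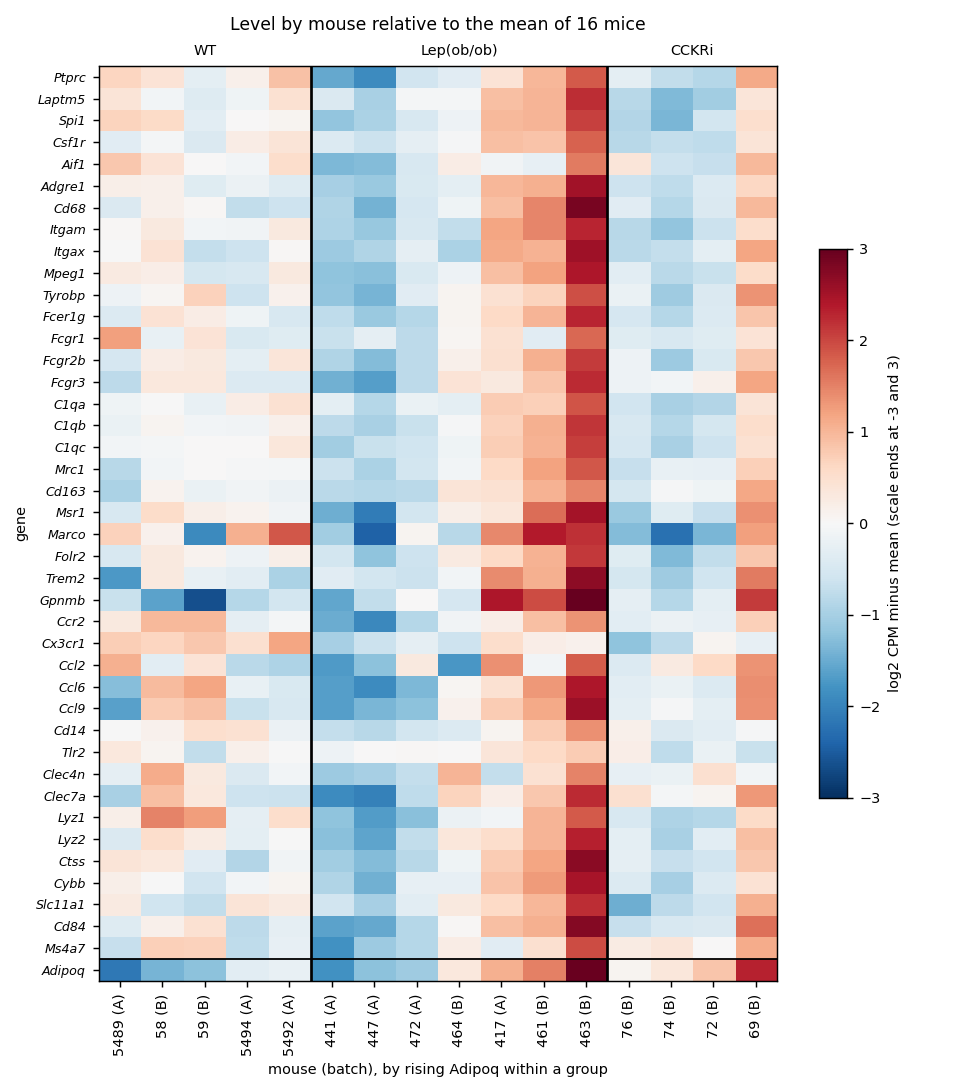
Log2 CPM of each member and of Adipoq minus its mean over the 16 mice, with mice ordered by Adipoq within each group and the batch in brackets. Most members are above their mean in the 3 Lep(ob/ob) mice and the CCKRi mouse with the highest Adipoq, and also in WT mouse 58.

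The first comparison asked how the members differed between obese and lean pancreas. None of the 41 members passed an adjusted p of 0.05 (edgeR quasi-likelihood test with batch as a covariate), where 9.07% of all genes tested did, and for no member did the groups fail to overlap (2.92% of all genes were higher and 1.12% lower without overlap). At an unadjusted p under 0.05 there were 2 higher members (Gpnmb and Trem2) and 1 lower member (Cx3cr1), where 12.2% of all genes were higher and 11.6% lower. DESeq2 called Gpnmb and Cx3cr1, and 12.4% of all genes. The log2 fold change was above 0 for 32 of 41 members and 47.7% of all genes, with a median of 0.37 over the members and -0.02 over all genes. Without the 4 mice with the highest Adipoq the median was -0.61, and 12 members were called, all with a value below 0 (edgeR), where 12.3% of all genes were called and 4.83% were lower. This removal takes 3 of 7 Lep(ob/ob) mice and no WT mouse, and those 3 had the highest member levels, so a lower Lep(ob/ob) level follows from the selection and the count is no test of the genotype. Without mouse 463 alone the median was 0.05, with 24 members above 0.

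The batches differed in direction. In batch A, the log2 fold change of Lep(ob/ob) against WT was above 0 for 14 of 40 members and 50.8% of all genes, with a member median of -0.12, and 0 members were called where 8.68% of genes were. In batch B it was above 0 for 38 of 41 members and 51.2% of all genes, with a member median of 1.08, and 0 were called where 0.057% of genes were. At an unadjusted p under 0.05, 3 members were lower in batch A (8.26% of all genes) and 13 were higher in batch B (8.79%). All Lep(ob/ob) mice of batch B exceeded both WT mice for Laptm5, Csf1r, Fcgr3, Cd163, Gpnmb and Slc11a1, that is 6 of 41 members, where 17.2% of all genes did so. In batch A, Aif1 and Clec4n were lower in every Lep(ob/ob) mouse than in every WT mouse, where 10.3% of genes were. The interaction of genotype and batch was above 0 for 40 of 40 members, against 48.8% of all genes. Of these, 4 were at an unadjusted p under 0.05, where 5.53% of all genes were higher, but 0 passed the adjusted threshold (edgeR), as 0% of all genes did.

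Markers of the macrophage lineage followed the overall pattern. Adgre1 (F4/80, the classical macrophage surface marker) was at 7.81, 5.21, 6.12, 7.68 and 5.35 CPM in WT, at 3.12 to 40.2 CPM with a median of 5.62 in Lep(ob/ob), and at 10.6, 5.12, 4.01 and 4.45 CPM in CCKRi mice. Its groups overlapped, and the Lep(ob/ob) against WT difference was 0.66 on the log2 scale (SE 0.50, edgeR adjusted p = 0.46). Csf1r, the receptor for the growth factor CSF1, was at 17.2, 28.6, 25.5, 20.9 and 16.1 CPM in WT, at 14.01 to 74.5 CPM with a median of 21.4 in Lep(ob/ob), and at 28.5, 12.8, 13.4 and 12.2 CPM in CCKRi mice. The median Lep(ob/ob) mouse was thus within the WT range, and 3 of 4 CCKRi mice lay below every WT and Lep(ob/ob) mouse. Its log2 fold change was 0.45 (SE 0.37, adjusted p = 0.501) for Lep(ob/ob) against WT. Cd68, a protein of macrophage lysosomes, was at 4.63, 4.08, 3.74, 7.04 and 6.45 CPM in WT, at 2.28 to 46.2 CPM with a median of 5.75 in Lep(ob/ob), and at 12.5, 4.65, 3.46 and 4.92 CPM in CCKRi mice. The difference between Lep(ob/ob) and WT was 0.99 (SE 0.52, edgeR adjusted p = 0.262). Ptprc (CD45, carried by all leukocytes) was at 18.3, 21.5, 12.98, 15.5 and 9.43 CPM in WT, at 3.07 to 41.6 CPM with a median of 9.20 in Lep(ob/ob), and at 25.5, 6.39, 6.93 and 9.37 CPM in CCKRi mice. It was 1 of the 9 members with a negative log2 fold change, at -0.37 (SE 0.53, edgeR adjusted p = 0.725). The other lineage genes were Laptm5, Spi1, Aif1, Itgam, Itgax and Mpeg1, with log2 fold changes from -0.50 (Aif1) to 0.80 (Itgax). Of the 50-base stretches of Itgam transcripts, 66.34% also occur in the overlapping gene model Gm49368, so its count is uncertain.

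Adaptors and receptors that signal through ITAM motifs, and the complement proteins, also showed no difference past the threshold. Tyrobp (DAP12, the adaptor of TREM2) was at 4.17, 5.15, 3.01, 4.85 and 7.60 CPM in WT, at 1.72 to 18.2 CPM with a median of 4.98 in Lep(ob/ob), and at 12.1, 3.43, 2.19 and 4.04 CPM in CCKRi mice. These ranges overlapped, with a log2 fold change of 0.17 (SE 0.45, edgeR adjusted p = 0.859) for Lep(ob/ob) against WT. Fcer1g, the common Fc receptor gamma chain, and the IgG receptors Fcgr1, Fcgr2b and Fcgr3 had log2 fold changes from -0.06 (Fcgr1) to 0.46 (Fcer1g). C1qa, a subunit of the first component of complement that tissue macrophages make, was at 15.8, 23.6, 20.0, 17.1 and 14.6 CPM in WT, at 9.40 to 64.2 CPM with a median of 14.9 in Lep(ob/ob), and at 22.3, 9.35, 8.75 and 11.4 CPM in CCKRi mice. The 3 subunits C1qa, C1qb and C1qc differed by 0.31, 0.40 and 0.31 on the log2 scale between Lep(ob/ob) and WT, and 3 of 4 CCKRi mice lay below every WT mouse for C1qa.

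Receptors of lipid-handling macrophages had the 2 largest positive differences. Gpnmb was at 2.20, 2.41, 1.93, 1.10 and 0.49 CPM in WT, at 1.14 to 61.8 CPM with a median of 3.63 in Lep(ob/ob), and at 15.8, 2.90, 1.94 and 2.97 CPM in CCKRi mice. In batch B every Lep(ob/ob) and CCKRi mouse exceeded both WT mice, as they did for 17.2% and 11.6% of all genes, whereas in batch A the groups overlapped. Gpnmb was the 1 member of 41 higher without overlap in CCKRi against WT there. Its log2 fold change was 2.78 (SE 0.98, edgeR adjusted p = 0.0904) and lay between 2.00 and 3.10 with each mouse left out, with adjusted p from 0.0563 to 0.32. Without the 4 mice with the highest Adipoq it was 0.54. Trem2 was at 0.23, 0.47, 0.79, 1.28 and 0.85 CPM in WT, at 0.61 to 7.12 CPM with a median of 0.96 in Lep(ob/ob), and at 3.19, 0.63, 0.425 and 0.67 CPM in CCKRi mice, on 3 to 183 counts per mouse. Its log2 fold change was 1.498 (SE 0.64, edgeR adjusted p = 0.16), and it was carried by mice 463, 417 and 461, since the other Lep(ob/ob) mice were within the WT range. Mrc1 (CD206, the mannose receptor) was at 13.3, 22.9, 23.1, 22.3 and 24.1 CPM in WT, at 12.2 to 86.2 CPM with a median of 22.4 in Lep(ob/ob), and at 39.1, 19.9, 20.2 and 14.6 CPM in CCKRi mice. Cd163, the scavenger receptor for haemoglobin, was at 5.31, 9.23, 9.58, 11.1 and 9.00 CPM in WT, at 5.68 to 28.7 CPM with a median of 13.54 in Lep(ob/ob), and at 23.2, 9.51, 10.1 and 7.15 CPM in CCKRi mice. Both overlapped between groups, with log2 fold changes of 0.49 (SE 0.37) and 0.43 (SE 0.34) for Lep(ob/ob) against WT (edgeR adjusted p = 0.448 and 0.487). Msr1, Marco and Folr2, receptors for modified lipoproteins, bacteria and folate, differed by 0.28, 0.06 and 0.38.

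The chemokine receptors Cx3cr1 and Ccr2 were among the members with a log2 fold change below 0, and neither passed the threshold. Cx3cr1, the fractalkine receptor of patrolling monocytes and some tissue macrophages, was at 2.12, 2.94, 1.76, 2.01 and 2.25 CPM in WT, at 0.57 to 1.84 CPM with a median of 1.01 in Lep(ob/ob), and at 1.03, 1.32, 0.67 and 0.47 CPM in CCKRi mice, on 7 to 48 counts per mouse. Only mouse 417 among the 7 Lep(ob/ob) mice reached the WT range, and no CCKRi mouse did. The log2 fold change for Lep(ob/ob) against WT was -0.99 (SE 0.30, edgeR adjusted p = 0.0512), -1.01 in batch A and -0.87 in batch B. With each mouse left out it lay between -1.22 and -0.85, with adjusted p from 0.0216 to 0.125, and DESeq2 gave an adjusted p of 0.0242. Ccr2, the receptor that draws monocytes out of the blood, was at 8.04, 6.28, 5.44, 13.1 and 12.96 CPM in WT, at 1.63 to 16.9 CPM with a median of 6.13 in Lep(ob/ob), and at 10.9, 5.54, 5.83 and 5.26 CPM in CCKRi mice. Its log2 fold change was -0.51 (SE 0.33, edgeR adjusted p = 0.38), and in batch B each of the 4 CCKRi mice lay below both WT mice, as for 3 of 41 members (Ccr2, Cx3cr1 and Lyz1) and 10% of all genes. Ccl2, the ligand of CCR2, was at 1.14, 0.20, 0.23, 0.37 and 0.67 CPM in WT, at 0.064 to 1.98 CPM with a median of 0.45 in Lep(ob/ob), and at 1.39, 0.79, 0.61 and 0.34 CPM in CCKRi mice. With 1 to 51 counts per mouse, its log2 fold change of 0.44 (SE 0.72) is imprecise. The macrophage chemokines Ccl6 and Ccl9 differed by 0.11 and 0.56. In WT, both Ccl6 (32.7 and 38.6 against 6.98 to 14.6 CPM) and Ccl9 (17.2 and 18.5 against 3.19 to 7.15 CPM) were higher in batch B than in batch A.

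None of the lysosomal and antimicrobial genes passed the threshold in Lep(ob/ob) against WT. Lyz2 was at 69.4, 93.5, 77.3, 135 and 112 CPM in WT, at 31.5 to 475 CPM with a median of 119 in Lep(ob/ob), and at 177, 76.0, 47.6 and 77.4 CPM in CCKRi mice. Lyz1, an isozyme that Paneth cells of the gut also make, was at 3.11, 4.01, 2.27, 7.96 and 6.69 CPM in WT, at 0.79 to 10.2 CPM with a median of 2.43 in Lep(ob/ob), and at 4.17, 1.48, 1.40 and 1.95 CPM in CCKRi mice. The log2 fold change for Lep(ob/ob) against WT was 0.25 (SE 0.44, edgeR adjusted p = 0.779) for Lyz2 and -0.74 (SE 0.38, adjusted p = 0.252) for Lyz1, and the difference between them was not tested. The copies share 16.06% of the 50-base stretches of Lyz1 and 15.39% of those of Lyz2, and Lyz2 is the more abundant, so the Lyz1 count could hold reads of Lyz2. Ctss, Cybb (the catalytic subunit of the phagocyte NADPH oxidase) and Slc11a1 (a metal transporter of the phagosome) differed by 0.51, 0.57 and 0.46. The microbial recognition genes Cd14, Tlr2, Clec4n and Clec7a lay between -0.21 (Clec4n) and 0.34 (Clec7a), and the surface proteins Cd84 and Ms4a7 were at 0.69 and -0.01.

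**Figure D3:**
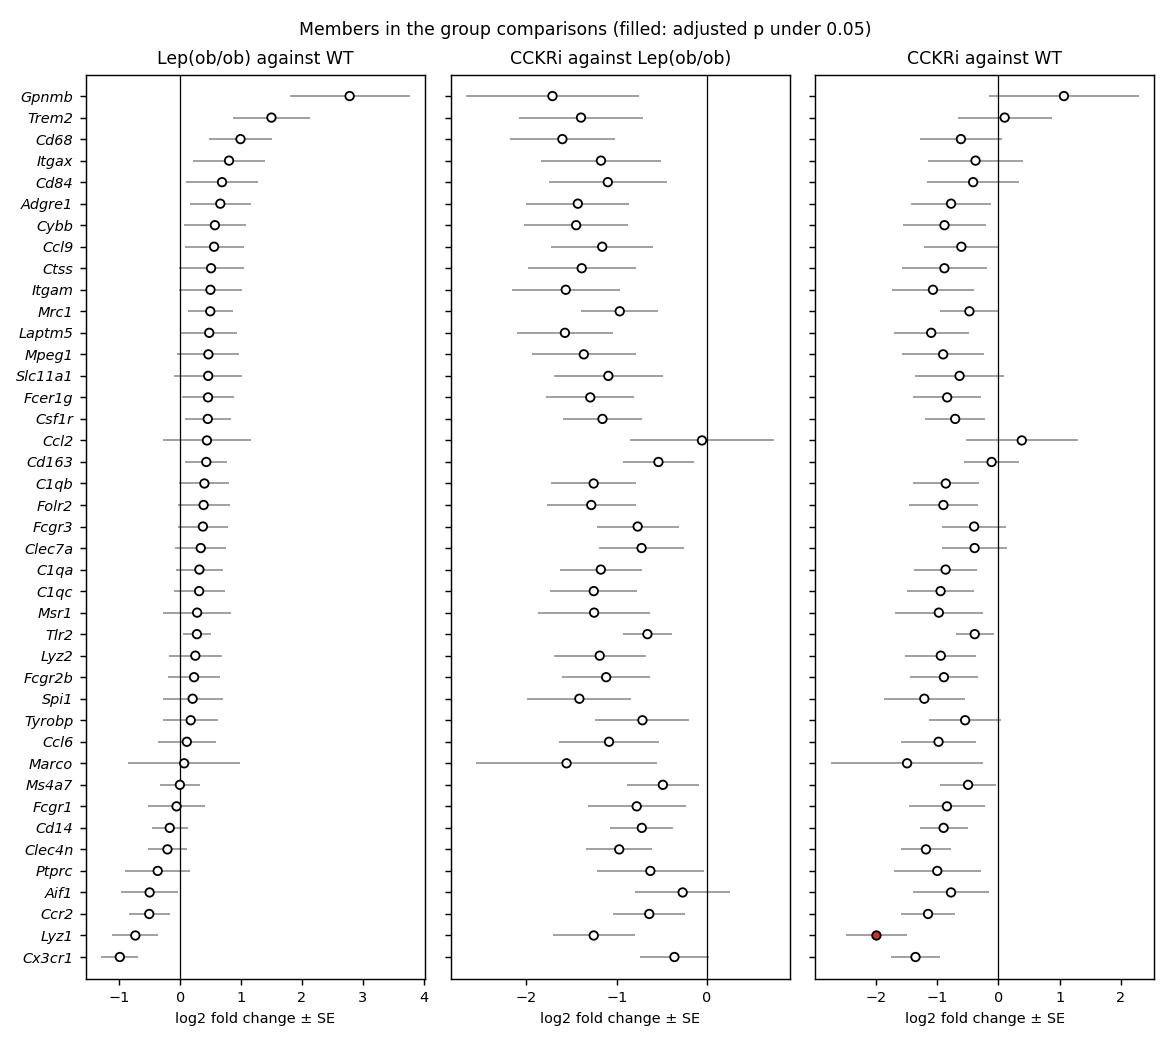
Log2 fold change and standard error (edgeR, batch as covariate) of the 41 tested members in the 3 group comparisons, ordered by the first one, with filled points for an adjusted p under 0.05. Lyz1 in CCKRi against WT is the 1 filled point, and all 41 points of CCKRi against Lep(ob/ob) lie below 0.

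The second comparison asked whether the members differed between antagonist-treated and untreated obese mice. All 41 log2 fold changes of CCKRi against Lep(ob/ob) were below 0, where 48.8% of all genes were above it, from -1.71 (Gpnmb) to -0.06 (Ccl2), with a median of -1.16 against -0.01 over all genes. None passed an adjusted p of 0.05 in edgeR or in DESeq2, where 0.0586% of all genes did in edgeR. At an unadjusted p under 0.05, 20 of 41 were lower, where 6.74% of all genes were. All 5 fibroblast markers were below 0 as well, from -1.40 (Col1a1) to -0.42 (Pdgfra), and all 5 mesothelial markers, from -1.25 (Lrrn4) to -0.65 (Krt19), with 4 of each list at an unadjusted p under 0.05 and 0 past the adjusted threshold (edgeR). Krt19 also marks ducts in the pancreas, and the study stains its protein for ductal tumorigenesis. The mesothelial list thus does not mark mesothelium alone, here and below. All 7 lymphocyte and lymph node markers were below 0 too, with a median of -0.73 and 0 at an unadjusted p under 0.05. The acinar markers ran from -1.06 (Ctrb1) to 0.48 (Amy2a5, the only one above 0), with Ctrb1 and Cel at that p. The endothelial markers ran from -0.54 (Cdh5) to -0.15 (Emcn), and the islet markers from 0.16 (Chga) to 0.87 (Iapp). The part of these cells in the result was not tested. The groups overlapped for each of the 41 members, where 2.53% of all genes were lower without overlap. Laptm5, a lysosomal membrane protein of leukocytes that was singled out after its values were seen, had the smallest p, with 14.9, 5.54, 4.56 and 6.47 CPM in CCKRi mice against 5.82 to 54.6 CPM with a median of 11.2 in Lep(ob/ob) (log2 fold change -1.57, SE 0.53, edgeR adjusted p = 0.271). Csf1r differed by -1.16 (SE 0.43, adjusted p = 0.285), Cd68 by -1.60 (SE 0.58, adjusted p = 0.28) and Lyz1 by -1.25 (SE 0.45, adjusted p = 0.28). Cx3cr1 (-0.36, SE 0.38) and Ptprc (-0.63, SE 0.59) were closer to 0.

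The size of this difference turned on single mice. Without Lep(ob/ob) mouse 463, 0 members were lower at an unadjusted p under 0.05 (4.77% of all genes), the median was -0.52 and 5 members were above 0. Without CCKRi mouse 69, 34 members were lower at that p (11.49% of all genes) and the median was -1.67. Without mouse 74 there were 6 (3.75% of all genes), and without mouse 72 there were 11 (4.18%). Without the 4 mice with the highest Adipoq, 2 members were lower at that p (2.96% of all genes), the median was -0.23 and 10 members were above 0. Within batch B alone, 27 members were lower at an unadjusted p under 0.05 (6% of all genes), the median was -1.39 and 0 passed the adjusted threshold, as 0.0142% of all genes did.

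The antagonists were given at different doses, and their values are set side by side without a comparison. For Csf1r, the proglumide mice had 28.5 and 12.8 CPM and the lorglumide mice 13.4 and 12.2 CPM. For Cd68 the values were 12.5 and 4.65 CPM with proglumide and 3.46 and 4.92 CPM with lorglumide, and for Gpnmb 15.8 and 2.90 CPM with proglumide and 1.94 and 2.97 CPM with lorglumide. Mouse 69 was the higher of the proglumide mice in each case and mouse 72 was near the lorglumide mice. With proglumide mice only, the median log2 fold change against Lep(ob/ob) was -0.77 and 1 member was lower at an unadjusted p under 0.05, where 5.46% of all genes were. With lorglumide mice only it was -1.67 and 31 were lower at that p, where 8.3% of all genes were. These figures are no comparison of the drugs, since mouse 69 was among the proglumide mice. Without mouse 69 alone, the median over both drugs was also -1.67.

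In the third comparison, CCKRi against WT, Lyz1 was lower in CCKRi mice, with a log2 fold change of -1.99 (SE 0.50, edgeR adjusted p = 0.0241). It was the only one of 41 members past the threshold, where 5.57% of all genes were called and 1.35% were lower. Without the 4 mice with the highest Adipoq, among them the CCKRi mouse that was highest of its group for 37 of 41 members, 19 members were called, all below 0 (edgeR), where 3.33% of all genes were lower, with a median of -0.82, and this count too follows in part from the selection. DESeq2 called Lyz1 and Cx3cr1, both lower, where 2.701% of all genes were. Its values over both batches overlapped, and within batch B the CCKRi mice (1.40 to 4.17 CPM) lay below both WT mice (6.69 and 7.96 CPM), as for 10% of all genes. When single mice were left out, the adjusted p (edgeR) ran from 0.00489 to 0.079. The Lyz1 call was lost without WT mouse 58 and without CCKRi mouse 72, 74 or 76, and kept in the other 12 fits. It was also lost without the batch covariate (log2 fold change -1.07) and within batch B alone (-1.67). Cx3cr1 was the 1 member whose CCKRi and WT mice did not overlap over both batches, where 5.22% of all genes were lower without overlap. Its log2 fold change was -1.35 (SE 0.41, edgeR adjusted p = 0.0648). The median over the members was -0.86 in both batches together and -0.18 within batch B, where 11 of 41 members and 52% of all genes were above 0. In the fit of both batches all 5 genes of the mesothelial list were below 0, with a median of -0.97. Of them only Krt19, which also marks ducts, passed the threshold (-1.15, SE 0.27, edgeR adjusted p = 0.0147). All 5 fibroblast markers (median -0.67), all 7 lymphocyte and lymph node markers (median -1.05) and all 3 neutrophil markers (median -0.996, S100a9 at -2.36 with adjusted p = 0.205) were below 0 as well. The part of these cells in the result was not tested.

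The relation to Adipoq was examined next, because the mice with the highest members were those with the highest Adipoq. In a model with group, batch and the log2 CPM of Adipoq, the level rose with Adipoq for 38 of 41 members (edgeR, adjusted p under 0.05), where 18.9% of all genes rose and 15.2% fell. The slope was above 0 for all 41 members and 43.7% of all genes, from 0.13 (Tlr2) to 1.27 (Gpnmb), with a median of 0.57 log2 units per log2 unit of Adipoq against -0.03 over all genes. The members that did not pass were Fcgr1, Tlr2 and Clec4n. The smallest p were those of Csf1r (slope 0.52, SE 0.05, edgeR adjusted p = 5.53e-08), Gpnmb (1.27, SE 0.11, adjusted p = 7.84e-08), Mrc1 (0.51, SE 0.05, adjusted p = 1.6e-07), C1qc (0.58, SE 0.06, adjusted p = 3.11e-07) and Cd163 (0.48, SE 0.05, adjusted p = 3.14e-07). C1qc was at 13.7, 18.5, 14.5, 13.9 and 14.5 CPM in WT, at 6.97 to 61.0 CPM with a median of 13.3 in Lep(ob/ob), and at 20.0, 9.35, 7.29 and 10.2 CPM in CCKRi mice. By role, the median slope was 0.74 over the 7 scavenger and uptake receptors, 0.63 over the 10 lineage genes, 0.61 over the 5 chemokines and their receptors and over the 5 lysosomal and antimicrobial genes, 0.60 over the 2 other surface proteins, 0.56 over the 3 C1q subunits, 0.55 over the 5 ITAM adaptors and Fc receptors and 0.27 over the 4 microbial recognition genes. Of the last, Clec7a (0.51) and Cd14 (0.33) rose, and the slopes of Clec4n and Tlr2 were 0.21 and 0.13.

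Between 33 and 39 members rose with each mouse left out, the fewest without mouse 463, and the share of all genes that rose was also lowest without it, at 11.03% against 15.21% to 19.69% in the other fits. Without the 4 mice with the highest Adipoq, 0 of 41 were called (edgeR), where 0.682% of all genes were, 11 were positive at an unadjusted p under 0.05 (5.62% of all genes), and 34 slopes were above 0 with a median of 0.16. Within batch B alone 37 of 41 rose, where 16.35% of all genes did.

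As a plain correlation of log2 CPM over the 16 mice, Pearson's r with Adipoq was -0.05 (Cx3cr1) to 0.89 (Cd163) with a median of 0.69. By a two-sided permutation test with 100000 permutations, adjusted over 13659 genes, 27 of 41 members were positive, where 12.5% of genes were. Spearman's rho ran from -0.13 to 0.81 with a median of 0.51, and 5 of 41 were positive by the same test, where 5.88% of genes were. Cd163 had r = 0.89 (permutation p = 1e-05, adjusted p = 0.000613; the smallest p that these permutations can give is 1e-05) and rho = 0.81 (permutation p = 0.00031, adjusted p = 0.011). Gpnmb had r = 0.85 (permutation p = 2e-05, adjusted p = 0.000911) and rho = 0.79 (permutation p = 0.00058, adjusted p = 0.0145). Cx3cr1 had r = -0.05 (permutation p = 0.855) and rho = -0.13 (permutation p = 0.624). Without mice 463 and 69, the mice farthest from the median of Adipoq, the median r over the members was 0.43, from -0.19 (Fcgr1) to 0.79 (Cd163), and 0 of 41 passed the adjusted threshold by the permutation test, where 1.23% of genes did. The 27 calls over all mice thus did not hold without those mice, while r was still 0.79 for Cd163, 0.71 for Gpnmb and 0.71 for Mrc1. The median r was 0.65 within batch A (7 mice) and 0.64 within batch B (9 mice), with 40 of 41 above 0 in each.

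**Figure D4:**
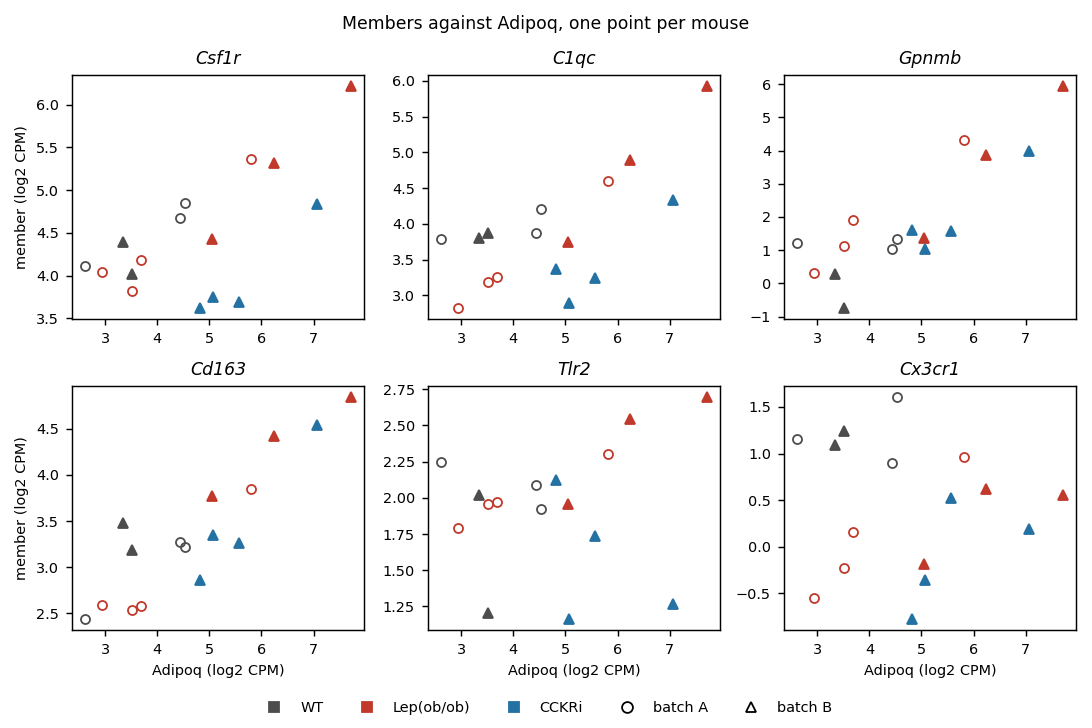
Log2 CPM of 6 members against log2 CPM of Adipoq, 1 point per mouse, coloured by group, with open circles for batch A and filled triangles for batch B. Csf1r, C1qc, Gpnmb and Cd163 are highest in the mice with the most Adipoq, and Tlr2 and Cx3cr1 show the weakest relation, with r = 0.20 and -0.05.

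Markers of other cell types moved with Adipoq too. Of the lymphocyte and lymph node markers (10 listed, 7 tested, Ccl21a at 0 in every mouse), 7 of 7 rose with Adipoq in the same model, with a median slope of 0.87. Their summed level was 13.3 to 55.6 CPM in WT, 2.37 to 102 CPM in Lep(ob/ob) and 5.10 to 53.5 CPM in CCKRi mice. The 7 adipocyte genes other than Adipoq itself all rose, as did 5 of 5 fibroblast genes, 5 of 5 mesothelial genes, 4 of 5 mast cell genes, 3 of 6 dendritic cell genes and 3 of 5 endothelial genes, while 5 of 7 islet genes and 1 of 7 acinar genes fell. The summed adipocyte level was 66.7 to 217 CPM in WT, 69.9 to 1584 CPM in Lep(ob/ob) and 211 to 1202 CPM in CCKRi mice. The fibroblast sum was 271 to 416, 222.2 to 856 and 197 to 401 CPM, and the mesothelial sum 53.0 to 85.6, 22.7 to 138 and 20.5 to 74.7 CPM, in the same order. The part of these cells in the result was not tested. For the neutrophil markers, of which Ly6g is not a row of the table, 0 of 3 tested genes rose or fell in this model, at an adjusted or unadjusted p under 0.05.

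With Adipoq held fixed, that is in the same model read for the groups, 9 of 41 members were lower in Lep(ob/ob) than in WT and 0 were higher (edgeR), where 4.89% of all genes were lower and 7.09% higher. They were Lyz1 (-1.55, SE 0.27, adjusted p = 0.000484), Cx3cr1 (-1.40, SE 0.29, adjusted p = 0.00232), Ptprc (-1.43, SE 0.31, adjusted p = 0.003) and Ccr2 (-1.18, SE 0.26, adjusted p = 0.00346), and Ccl6, C1qc, Msr1, Lyz2 and Fcgr2b between -1.03 and -0.60. The median over the members was -0.63, and 38 of 41 were below 0, where 44.4% of all genes were above it. Gpnmb (0.73, SE 0.40, edgeR adjusted p = 0.289) was the highest of the 3 members above 0. Lyz1, Cx3cr1, Ptprc, Ccr2 and Ccl6 passed with each mouse left out, and the count of lower members ran from 5 (without mouse 5489, 447 or 464) to 17 (without WT mouse 5494), where 2.80% to 4.85% of all genes were lower. Without the 4 mice with the highest Adipoq 16 members were lower, where 5.80% of all genes were. That removal takes the Lep(ob/ob) mice with the highest member levels and no WT mouse, so this count too follows in part from the selection. With the mean of 8 adipocyte genes in place of Adipoq, Ptprc, Lyz1, Ccl6, Cx3cr1 and Ccr2 were lower and Gpnmb was higher, where 5.73% of all genes were lower and 8.49% higher. Adipocyte genes did not all follow Adipoq across genotypes. In this model Cfd (adipsin, a protease that fat cells secrete) was lower in Lep(ob/ob) than in WT (-4.77, SE 0.23, edgeR adjusted p = 6.34e-11) and so was Retn (resistin, -1.46, SE 0.20, adjusted p = 3.32e-05), while Cidec, a lipid droplet protein, was higher (0.72, SE 0.16, adjusted p = 0.00398). The other 4 did not pass, at 0.08 to 0.32. All lymphocyte markers tested were also below 0 in this model, 3 of 7 past the threshold, and so were 3 of 6 dendritic cell markers. Pdgfra (fibroblast, -0.61), Pecam1 (endothelial, -0.53), Krt19 (-0.75), Kit (mast cell, -1.39) and Amy2a5 (acinar, -0.88) were lower past it too. No other marker of their lists passed, and islet markers such as Iapp (3.44) were higher. What lymphocytes and dendritic cells add to the difference in Ptprc and Ccr2, which they also express, was not tested.

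In CCKRi against Lep(ob/ob) with Adipoq held fixed, 18 of 41 members were lower and 0 higher (edgeR), where 1.95% of all genes were lower. The median was -0.96, and Ccl2 (0.28, SE 0.65) was the 1 member above 0, as 49.8% of all genes were. Csf1r was lower by the smallest p (-1.02, SE 0.15, adjusted p = 0.00217), followed by C1qc (-1.03, SE 0.19, adjusted p = 0.00829), C1qb (-1.04, SE 0.19, adjusted p = 0.00901) and Mrc1 (-0.84, SE 0.16, adjusted p = 0.0097). The other 14 were Folr2, Laptm5, C1qa, Fcer1g, Lyz2, Itgam, Fcgr2b, Cd68, Lyz1, Msr1, Ccl6, Cybb, Ccl9 and Adgre1, between -1.35 (Laptm5) and -0.96 (Fcgr2b). The count was 1 (Csf1r) without mouse 463, where 0.23% of all genes were lower, 3 without mouse 74 (0.258%), 4 without mouse 72 (0.287%), 8 without WT mouse 58 (0.642%), 9 without mouse 461 (0.459%) and 28 without mouse 464 (5.00%). The share over all genes thus moved with the count of members. Within batch B the count was 1 (Laptm5), where 0.121% of all genes were lower, and without the 4 mice with the highest Adipoq it was 0 (0.0879%), with 14 lower and 1 higher at an unadjusted p under 0.05, where 3.61% of all genes were lower and 4.17% higher. Of the fibroblast markers, 2 of 5 were lower in the same model, as was Cxcl13 (-1.74, SE 0.47, adjusted p = 0.047), 1 of the 7 lymphocyte and lymph node markers. In CCKRi against WT with Adipoq held fixed, 35 of 41 members were lower and 0 higher (edgeR), where 8.6% of all genes were lower, with a member median of -1.56. The WT and CCKRi mice had no Adipoq level in common, so this difference rests on extending the fitted slope to levels that the groups did not share, and without Adipoq in the model only Lyz1 was called. All 5 fibroblast and all 5 mesothelial markers and 5 of 7 lymphocyte and lymph node markers were lower too. The 6 members that did not pass were Aif1, Fcgr1, Trem2, Tlr2, Ccl2 and Gpnmb, and this comparison was not rerun under other settings.

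**Figure D5:**
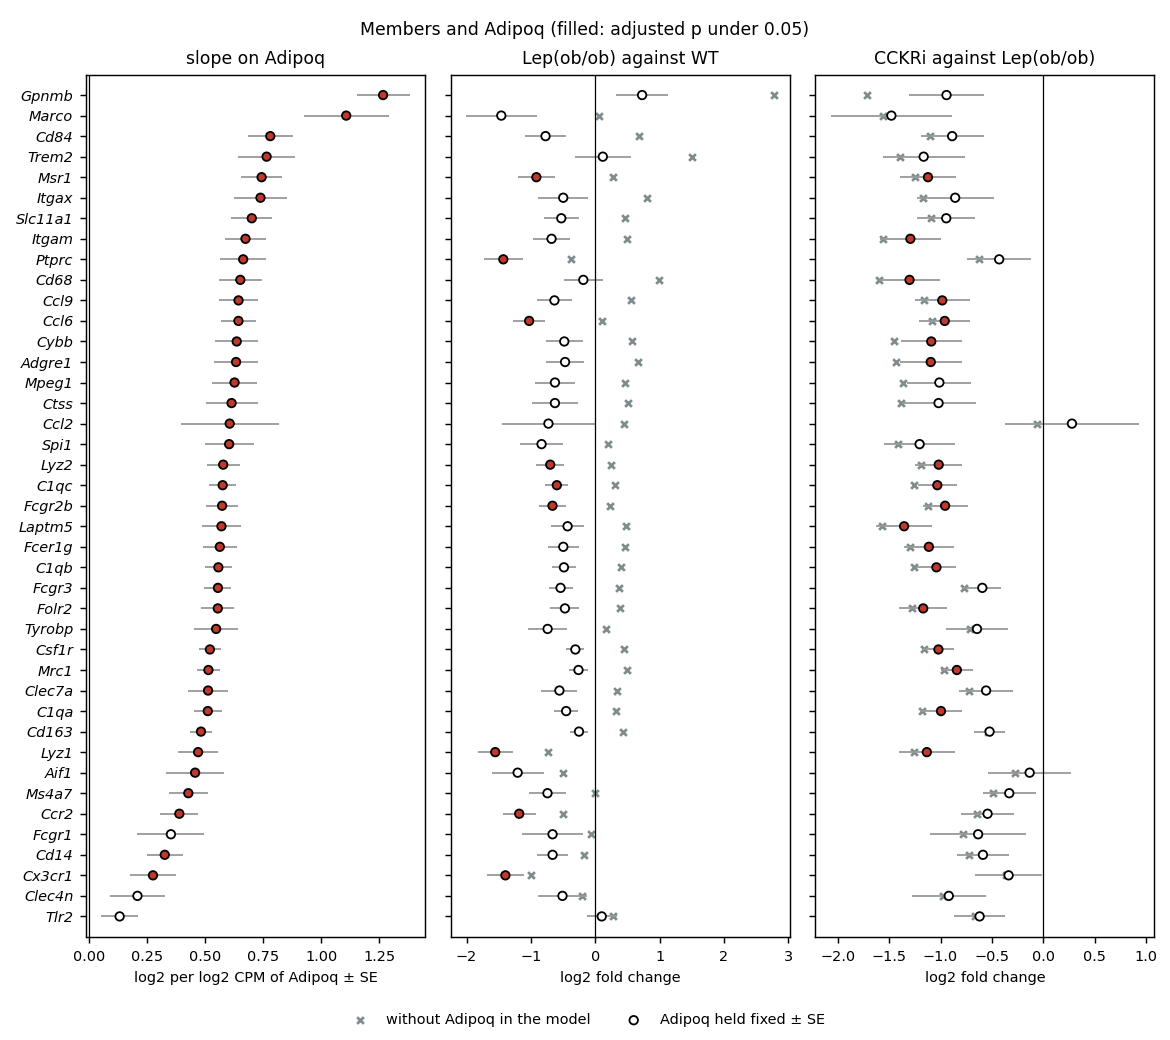
Left, slope of each member on Adipoq (log2 units per log2 CPM of Adipoq) with standard error. Middle and right, log2 fold change of Lep(ob/ob) against WT and of CCKRi against Lep(ob/ob), with crosses for the model without Adipoq and circles with standard error for Adipoq held fixed, filled where the adjusted p is under 0.05. The middle crosses lie mostly above 0 and the circles mostly below it, with 32 and 3 of 41 members above 0.

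The other genes of macrophage biology were read from 9 lists. Lymphocytes and other leukocytes express some of these genes as well, and their part in the list results was not tested. Of the 15 tested genes of the lipid-associated and lysosomal list, 2 exceeded their WT level in Lep(ob/ob) mice, where 5.93% of all genes did, Mmp12 (a macrophage elastase) by 5.10 (SE 1.12, edgeR adjusted p = 0.00858) and Atp6v0d2 (a subunit of the lysosomal proton pump) by 3.66 (SE 0.90, adjusted p = 0.0169). Mmp12 was at 0.076, 0.535, 0.34, 1.01 and 0.12 CPM in WT, at 0.57 to 83.6 CPM with a median of 3.24 in Lep(ob/ob), and at 14.7, 4.70, 4.07 and 3.44 CPM in CCKRi mice, so that all CCKRi and all but 1 of the Lep(ob/ob) mice lay above the WT mice. With Adipoq held fixed Mmp12 remained higher in Lep(ob/ob) (2.71, SE 0.49, adjusted p = 0.00063) and was the only one of the 15. None of the 8 other lists had a gene past the threshold in Lep(ob/ob) against WT, and no list had one in CCKRi against Lep(ob/ob) or CCKRi against WT.

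On Adipoq, where 18.9% of all genes rose and 15.2% fell, 13 of 13 resident macrophage genes rose, the smallest p being those of the lectin Clec10a (slope 0.63), the phosphatidylserine receptor Timd4 (0.78) and F13a1 (0.49). All 12 genes of ITAM receptor signalling rose, led by the kinases Syk (0.76) and Lyn (0.37) and the phosphatase Inpp5d (0.56). All 7 complement receptors and integrin partners rose, among them Cfp (properdin, 0.56), Vsig4 (1.02) and C5ar1 (0.62). All 5 NADPH oxidase subunits rose, among them Ncf1 (0.73) and Rac2 (0.74), as did 7 of 8 myeloid transcription factors, among them Cebpa (0.55), Irf8 (0.61) and Ikzf1 (0.70). Of the lipid-associated list 11 of 15 rose and 1 fell, the smallest p being those of Cd36 (0.87), Plin2 (0.84) and Mmp12 (1.29), and fat cells also express Cd36 and Plin2. Of the monocyte genes 5 of 8 rose (among them Ace 0.21 and Spn 0.62), of the growth factors and chemoattractants 4 of 7 (Csf1 0.38, Il34 0.41 and Ccl5 0.63 first), and of the inflammatory cytokines 2 of 3 (Tgfb1 0.36 and Il1rn 0.86).

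With Adipoq held fixed, 5 of 13 resident genes were lower in Lep(ob/ob) mice against WT, where 4.89% of all genes were, with the smallest p for Mgl2 (-1.13, SE 0.19), Timd4 (-1.18, SE 0.26) and Maf (-0.69, SE 0.18). The 6 of 12 ITAM signalling genes that were lower included Syk (-0.95), Lcp2 (-1.18) and Inpp5d (-0.75), and the 3 of 8 monocyte genes were Plac8 (-1.27), Ace (-0.44) and Ly6c2 (-2.59). The integrin chains Itga4 (-1.30) and Itgal (-1.09) and Cfp (-0.71) were lower as well, with Rac2 (-1.32), Irf5 (-1.04), Ikzf1 (-1.04) and Csf1 (-0.71). In the same fit the lymphocyte and lymph node markers Cd79a (-1.56), Ms4a1 (-1.61) and Cxcl13 (-1.91) were lower, and the others tested were below 0. In CCKRi against Lep(ob/ob) with Adipoq held fixed, 4 of 13 resident genes were lower, where 1.95% of all genes were, first Timd4 (-1.52, SE 0.28), Lyve1 (-0.82, SE 0.19) and Pf4 (-0.89, SE 0.23). So were 4 of 7 complement receptors and integrin partners, first Cfp (-1.002, SE 0.20), Itgb2 (-1.26, SE 0.26) and Vsig4 (-1.46, SE 0.37), and Ctsb (-0.88) and Tgfb1 (-0.86). Of the 78 tested genes of the 9 lists, 10 were lower in this fit, and the count was 1 without mouse 463, 1 within batch B and 0 without the 4 mice with the highest Adipoq. For Lep(ob/ob) against WT with Adipoq held fixed, 21 were lower, with 17 without mouse 463, 6 within batch B and 22 without the 4 mice. The count without the 4 mice follows in part from their selection. In batch B the WT and Lep(ob/ob) mice had no Adipoq level in common, so that fit extends the slope to levels they did not share. The slope on Adipoq was positive past the threshold for 66, for 55 without mouse 463, for 63 within batch B and for 3 without the 4 mice. For Mmp12 the difference between Lep(ob/ob) and WT also passed without mouse 463 (4.16, edgeR adjusted p = 0.00736) and without the 4 mice (2.52, adjusted p = 0.00222), but not within batch B, where it was 6.04 (adjusted p = 0.16) and, with Adipoq held fixed, 1.05 (adjusted p = 0.6). The last value rests on the same extension of the slope.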

How the data were processed

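Whole pancreas RNA of 16 mice was analysed. The authors deposited the raw read count on each gene symbol. Per the submitters' processing notes, reads were trimmed with Trim Galore 0.6.7 and cutadapt 3.5 and aligned to mm10 with STAR 2.7.9. The read counter, its strand setting and the annotation are not given in the sources used here. A second deposited table, in which the authors divided each mouse's counts by its size factor, was not used. Counts were normalized by TMM and tested with edgeR 4.0.16 (R 4.3.3, limma 3.58.1) by the quasi-likelihood test, with all 16 mice, group and batch in 1 model and Benjamini-Hochberg adjustment over the 13660 genes kept by filterByExpr. Log2 CPM used a prior count of 2. Fits with Adipoq added its log2 CPM as a covariate. DESeq2 1.42.0 was an alternative. Correlations used numpy 2.4.6 and 100000 permutations. The scripts were tested on simulated data. Exon lengths and shared 50-base stretches came from the GENCODE annotation of GRCm38. The edgeR p-values set a difference or slope against the spread between these mice. Those of the correlations come from permuting the mice over groups and batches. Values by mouse are given for members past the threshold in a group comparison, for the 5 with the smallest p on Adipoq, for the extremes of each comparison and for 15 named markers; of each pathway list at most 3 genes past the threshold, by p, are named. The members, lists and tests were chosen with earlier results of these data known. Alternatives were no batch term, RLE scaling, DESeq2, the 50 most counted genes left out of scaling, other filters, single batches or drugs, and leaving out mice. Some genes of the pathway lists are not reported here by name.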

Additional observations from a re-analysis of the deposited data

Results flagged for a closer look

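In all, 9 groups were singled out because 1 mouse lay far from the others of its group on the log2 scale, in 126 groups tested (41 members and Adipoq in 3 groups). Chance alone gives about 1 in 20, or 6.3 groups. In the CCKRi group the mouse was 69 each time. It had 28.5 CPM of Csf1r against 12.2 to 13.4 in the other CCKRi mice, 1.35 CPM of Fcgr1 against 0.67 to 0.74, 10.9 CPM of Ccr2 against 5.26 to 5.83, 45.1 CPM of Ccl6 against 12.7 to 14.9, 26.1 CPM of Ccl9 against 8.13 to 9.72 and 13.2 CPM of Cd84 against 2.49 to 3.01. Its Adipoq level was 133 CPM against 28.2 to 47.3 CPM in the other CCKRi mice, and the part of this in its member levels was not tested. In the WT group, mouse 5492 was highest for C1qc, at 18.5 CPM against 13.7 to 14.5 in the others. WT mouse 5489 was lowest for Mrc1, at 13.3 CPM against 22.3 to 24.1, and for Cd163, at 5.31 CPM against 9.00 to 11.1. The same mouse had the lowest Adipoq of the 16 mice, at 5.99 CPM.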

How the results depend on the processing

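The 4 mice left out together (Lep(ob/ob) 417, 461 and 463 and CCKRi 69) were taken for their Adipoq level in these data. Their removal for the fits with Adipoq, and batch B alone for those with Adipoq held fixed, were chosen after seeing the data, as were the fits of the pathway lists without mouse 463, without the 4 mice and in batch B. Without them, the members called were 12 for Lep(ob/ob) against WT (12.31% of all genes), 19 for CCKRi against WT (9.64%), 0 for the slope on Adipoq (0.682%), and with Adipoq held fixed 16 for Lep(ob/ob) against WT (13.96%) and 0 for CCKRi against Lep(ob/ob) (0.103%). The counts for the comparisons with WT follow in part from the selection of these mice. In the same fit the slope turned to -0.73 for Ccl2, -0.036 for Ccr2, -0.028 for Cd68, -0.10 for Ctss, -0.39 for Fcgr1, -0.053 for Itgax and -0.020 for Lyz1. Also in it, the CCKRi against Lep(ob/ob) difference turned to 0.041 for Cybb, and with Adipoq held fixed to 0.017 for Ccr2, 0.22 for Cd14, 0.045 for Ctss, 0.29 for Gpnmb and 0.26 for Itgax. With the adipocyte mean held fixed, Csf1r in Lep(ob/ob) against WT turned to 0.0069. DESeq2 called 2 members in Lep(ob/ob) against WT and 2 in CCKRi against WT. For CCKRi against WT, 0 were called in batch B alone, where 0.0926% of all genes were. With proglumide mice only 0 were called, and with lorglumide mice only 2. In the main fit 5.57% of all genes were called, so the drug counts are not read as a result about the members. For CCKRi against Lep(ob/ob) with Adipoq held fixed, batch B alone called 1. For the correlation with Adipoq, Spearman's rho called 5 and leaving out the 2 mice farthest from its median called 0, against 27. With each mouse left out in turn, the members called ran from 0 to 1 for Lep(ob/ob) against WT, from 0 to 2 for CCKRi against WT, from 33 to 39 for the slope, from 5 to 17 for Lep(ob/ob) against WT with Adipoq held fixed and from 1 to 28 for CCKRi against Lep(ob/ob) with Adipoq held fixed. With all mice, 9.07% of all genes were called for Lep(ob/ob) against WT and 5.57% for CCKRi against WT. The member counts of those comparisons are thus not read as a result. For CCKRi against Lep(ob/ob), 0 members were called in every alternative run. No paired analysis was possible because the groups have no mouse number in common. Some members, such as Ccl2, Trem2 and Cx3cr1, rest on few counts per mouse. The cause of these changes was not tested.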
